A study of Mus musculus with 72 samples.

Results

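Mice that had fasted for 12 h a day (IF12) were compared with mice that ate freely (ad libitum, AL) at the end of 1 h of ischemia, before any reperfusion. The 6 samples, 3 from IF12 and 3 from AL mice, were picked by their titles out of 72 samples in 24 groups of 3. All were C57BL/6 mice aged 7 months, fasting had lasted 4 months, and ischemia was produced by middle cerebral artery occlusion (MCAO), which blocks the main artery of the lateral cerebrum on 1 side. RNA came from whole tissue of a mid-coronal section of the cerebrum on the occluded side, which holds cortex, striatum and deeper structures together. For context the text also uses IF12 and AL mice after sham surgery, and, after ischemia alone, mice fasted 16 h a day (IF16) or on alternate days, 24 h fasted and 24 h fed (EOD), with 3 samples in each group. The labels do not state that the 3 samples of a group are separate animals, so the p-values rest on sample-to-sample spread that may be technical. In such bulk RNA, fewer cells of a type and less RNA per cell cannot be told apart.

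Neurons answer depolarization within minutes by transcribing immediate early genes, a set of transcription factors and synaptic effectors that need no new protein synthesis. Calcium and cyclic AMP signals reach many of these genes through the transcription factor CREB, which binds the cAMP response element. The circadian clock is a feedback loop in which CLOCK and BMAL1 act on E-boxes of the Per and Cry genes, whose proteins then repress them, and Per1 is also a target of CREB. Feeding time sets the phase of clocks in many organs, and the middle cerebral artery supplies the striatum and the lateral cortex.

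Promoter windows of 9 of the genes described below were searched, 14 windows in all, of which 8 hold the core of the cAMP response element, 4 hold an E-box and 4 hold neither. Some of the 14 are overlapping windows at neighbouring starts of Egr2, in which the same cores recur. The 8 are therefore not separate matches. Those of 3 genes are shown because they hold such letters. The windows of Chrm4, Zfp503 and Oxt hold neither. The windows are from RefSeq on build GRCm38.p6, from 250 bases before to 50 after the annotated start, 5′ to 3′ on the gene's strand. Capitals mark TGACG, the core of the cAMP response element, and CACGTG, the canonical E-box, each searched on both strands. A TGACG core on the opposite strand reads CGTCA.
Nr4a1 (chr15:101266596-101266895, + strand): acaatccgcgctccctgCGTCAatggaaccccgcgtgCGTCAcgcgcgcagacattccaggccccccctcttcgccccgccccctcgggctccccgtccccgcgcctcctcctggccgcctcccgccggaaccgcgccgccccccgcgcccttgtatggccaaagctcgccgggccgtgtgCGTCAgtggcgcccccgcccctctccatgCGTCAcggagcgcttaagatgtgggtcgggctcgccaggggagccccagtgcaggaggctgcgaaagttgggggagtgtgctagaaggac
Per1, upstream start (chr11:69098699-69098998, + strand): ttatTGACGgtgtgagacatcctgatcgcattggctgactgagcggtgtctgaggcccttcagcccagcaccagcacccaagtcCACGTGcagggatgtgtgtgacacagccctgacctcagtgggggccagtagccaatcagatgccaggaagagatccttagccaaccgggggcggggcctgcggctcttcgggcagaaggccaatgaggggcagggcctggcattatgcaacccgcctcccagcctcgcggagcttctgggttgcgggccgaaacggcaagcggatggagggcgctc
Per1, downstream start (chr11:69099902-69100201, + strand): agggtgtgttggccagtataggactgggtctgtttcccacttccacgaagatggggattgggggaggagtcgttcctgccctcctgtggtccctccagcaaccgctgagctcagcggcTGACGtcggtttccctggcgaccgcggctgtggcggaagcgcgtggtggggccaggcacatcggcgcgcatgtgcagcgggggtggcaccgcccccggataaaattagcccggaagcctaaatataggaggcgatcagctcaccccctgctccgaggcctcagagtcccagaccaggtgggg
Cry1 (chr10:85185005-85185304, - strand): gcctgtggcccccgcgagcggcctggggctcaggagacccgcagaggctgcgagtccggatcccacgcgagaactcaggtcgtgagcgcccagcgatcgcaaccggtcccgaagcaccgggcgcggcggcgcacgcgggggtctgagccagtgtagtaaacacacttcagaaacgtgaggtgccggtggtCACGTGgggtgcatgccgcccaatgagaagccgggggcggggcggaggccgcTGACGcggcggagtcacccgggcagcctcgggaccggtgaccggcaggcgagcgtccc

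The Nr4a1 window holds 4 cores, and each Per1 window and the Cry1 window hold 1. The upstream Per1 window and the Cry1 window each also hold 1 E-box. The full element TGACGTCA occurs in none of these 4 windows. Over 32851 promoter windows of this length, 20.8% hold the core, 7.15% the E-box and 1.79% the full element, which contains the core. A match describes letters only, and no binding was measured here.

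The 6 samples held between 20028379 and 24097194 counts, and their normalization factors (TMM, the trimmed mean of M values) lay between 0.967 and 1.03. Levels are TMM-scaled CPM, in which each library is scaled to a common total, computed over 24 sham and ischemia-alone samples. CPM takes no account of gene length, so levels are compared between samples and not between genes. IF12 replicate 2 stood apart from the other 2 IF12 samples. The summed level of 18 cytosolic ribosomal protein genes was 3064, 5631 and 3170 CPM in IF12 replicates 1, 2 and 3, against 4225, 5686 and 5749 CPM in AL. The 13 genes of the mitochondrial genome summed to 22733, 36145 and 20801 CPM in IF12, against 28527, 45335 and 39254 CPM in AL. Oligodendrocyte markers summed to 5769, 10305 and 5576 CPM in IF12, against 7857, 10993 and 10904 CPM in AL. In each of these sums IF12 replicate 2 lay within or close to the range of the AL samples and well above the other IF12 samples. AL replicate 1 was in turn the lowest AL sample in each. Ribosomal sums also spread in EOD after ischemia alone (5761, 3355 and 4481 CPM) and in sham IF12 (5638, 3573 and 4060 CPM). In IF16 after ischemia alone they were closer together, at 3479, 3711 and 3657 CPM. Where leaving that sample out moves a list's count or median by much, the value without it is given beside it.

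No gene was called in IF12 against AL by edgeR's quasi-likelihood test at a Benjamini-Hochberg adjusted p under 0.05, which is 0 of 15991 genes tested, or 0%. The smallest adjusted p was 0.178. At an unadjusted p under 0.05 there were 1951 genes, or 12.2%, of which 1225 (7.66%) were higher and 726 (4.54%) lower in IF12. All 3 IF12 samples lay above all 3 AL samples for 1361 genes (8.51%), and below them for 1070 genes (6.69%). DESeq2's Wald test on the same 12 samples called 159 genes, 137 higher (0.92% of 14890 with an adjusted p) and 22 lower (0.148%). Without IF12 replicate 2, edgeR called 1257 of 16232 genes, 697 higher (4.29%) and 560 lower (3.45%). Of the genes DESeq2 called, 143 were among them, which is 89.9% of the DESeq2 calls and 11.4% of the calls without that sample. Leaving out any of the other 5 samples gave no call. The number of genes with an unadjusted p under 0.05 was 5298 without IF12 replicate 2, 2705 higher (16.7%) and 2593 lower (16%), and between 826 and 2336 without each of the others. List counts without that sample are to be read against these larger shares.

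**Figure D1:**
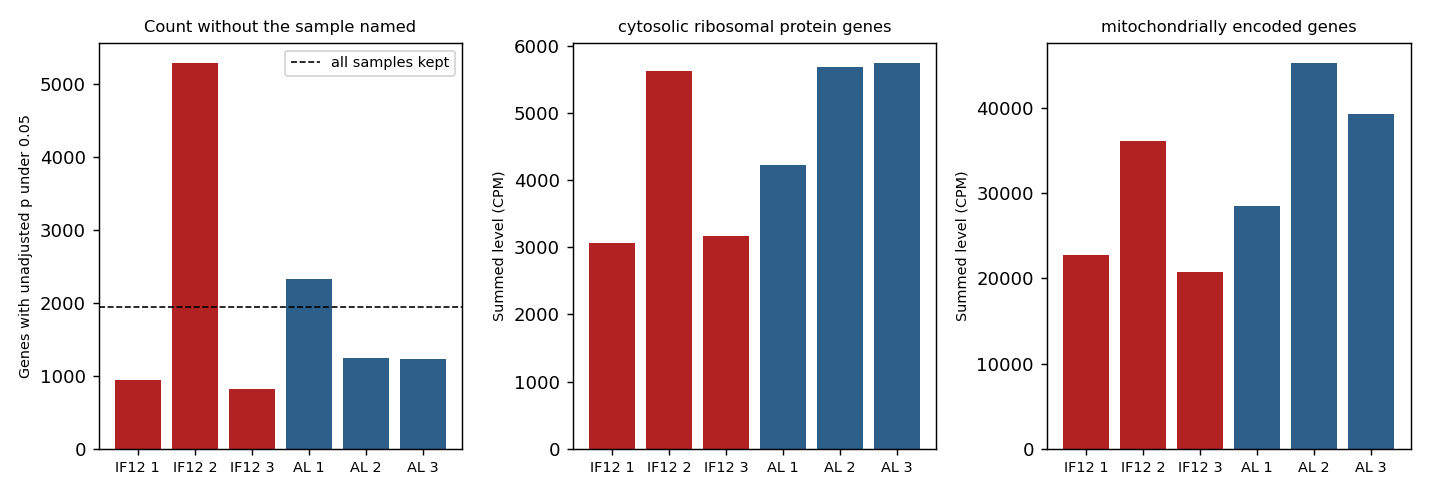
Left, the number of genes with an unadjusted p under 0.05 in IF12 against AL after each of the 6 samples is left out (bars), with the 1951 genes from all samples as a dashed line. Middle and right, the summed level in CPM of 18 ribosomal protein genes and 13 mitochondrially encoded genes in each sample; IF12 replicate 2, whose omission gives 5298 genes, carries 5631 and 36145 CPM and the other 2 IF12 samples are lower in both.

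The genes with the smallest p and no overlap between the groups were, on the higher side, led by transcription factors and signalling genes of the activity response. None of the genes named in this and the next paragraphs was called by edgeR in the comparison of all samples. Nr4a1, an orphan nuclear receptor induced by activity (chr15:101254269-101274795, build GRCm38), had 271, 244 and 311 CPM in IF12 and 80.4, 125 and 119 CPM in AL. Its log2 fold change was 1.33 ± 0.20 (SE; edgeR adjusted p = 0.178). Egr1, a zinc finger factor of the same response, had 676, 519 and 596 CPM in IF12 and 212, 330 and 324 CPM in AL. Egr2, its close relative, had 27.6, 12.7 and 16.8 CPM in IF12, against 3.48, 8.13 and 6.12 CPM in AL, a log2 fold change of 1.67 ± 0.33. For each of the 3 genes the lowest IF12 sample was above the highest AL sample, and their DESeq2 adjusted p-values were 3.87e-07 for Nr4a1, 0.000577 for Egr1 and 0.000448 for Egr2.

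Sik1, a salt-inducible kinase that restrains CREB coactivators, had 45.2, 39.2 and 49.0 CPM in IF12 and 14.2, 26.3 and 21.2 CPM in AL. Trib1, a pseudokinase that steers proteins to degradation, had 36.2, 33.2 and 40.9 CPM in IF12 and 18.2, 20.5 and 20.9 CPM in AL. Its log2 fold change was 0.87 ± 0.14 (edgeR adjusted p = 0.178, DESeq2 adjusted p = 2.32e-05). Cry1, a repressor of the clock loop, had 24.7, 25 and 28.7 CPM in IF12, against 15.3, 16.2 and 16.5 CPM in AL. Its log2 fold change was 0.70 ± 0.11 (edgeR adjusted p = 0.178). Jade2, which encodes a PHD finger protein of a histone acetyltransferase complex, had 149, 109 and 155 CPM in IF12, against 85.5, 80.8 and 80.4 CPM in AL.

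Other genes of the higher group mark or build particular brain regions. Chrm4, the muscarinic M4 receptor, which is abundant in striatal projection neurons, had 53.7, 40.7 and 52.3 CPM in IF12 and 16.8, 26.6 and 23.1 CPM in AL. Zfp503, a zinc finger factor of striatal development, had 26.4, 25.1 and 27.9 CPM in IF12 and 11.7, 13.2 and 15.1 CPM in AL. Gpr139, an orphan G protein-coupled receptor, was read 46, 13 and 53 times in IF12 and 2, 1 and 3 times in AL, a fitted log2 fold change of 4.09 ± 0.72. Its AL samples hold so few reads that the size of this change is poorly fixed, although the groups do not overlap.

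**Figure D2:**
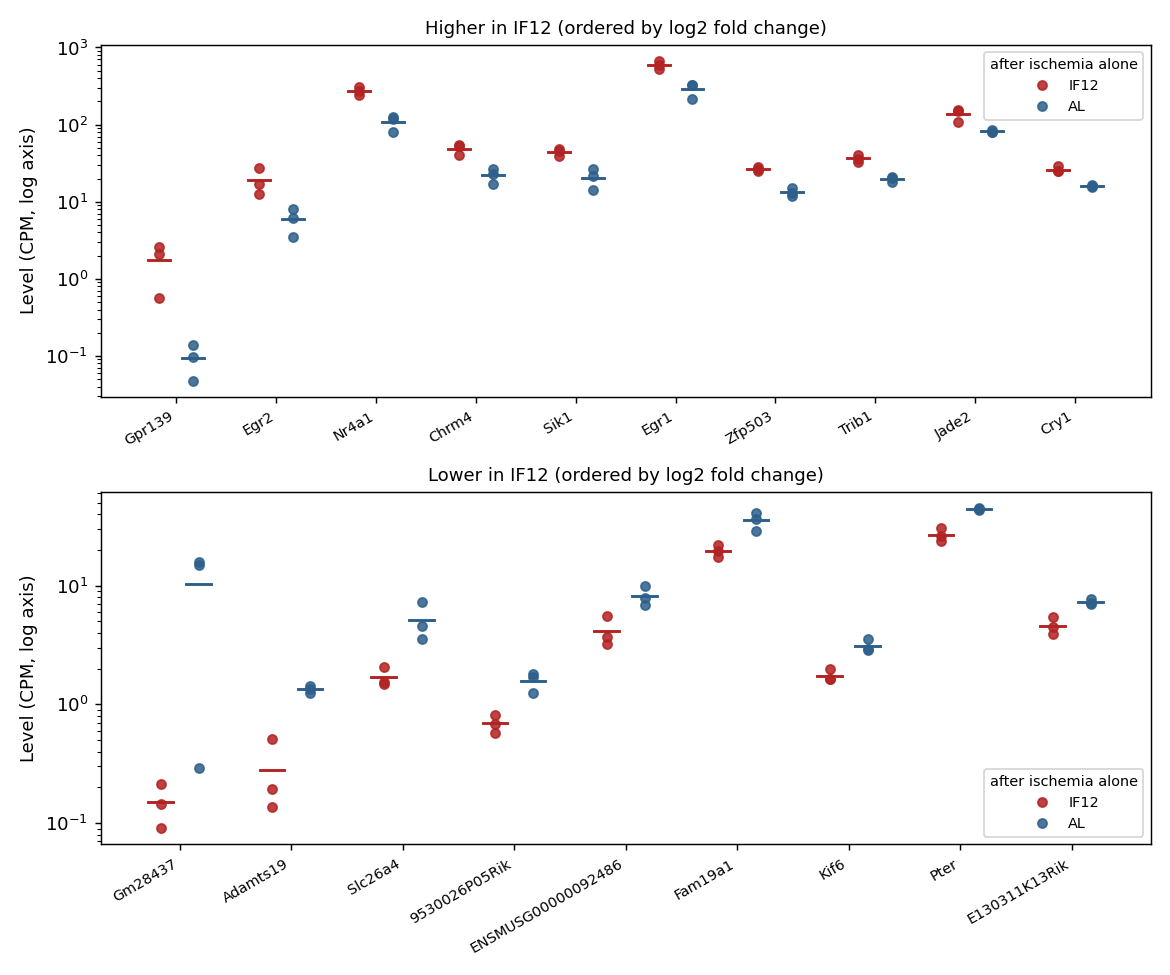
Level in CPM (log axis) of genes with the smallest unadjusted p, higher in IF12 above and lower below, after ischemia alone; points are single samples (3 IF12, red, left of 3 AL, blue) and bars are means. By the rule that chose them the groups do not overlap for any gene; Cry1 and Trib1 vary little within a group, while Gm28437 in AL runs between 0.29 and 15.7 CPM.

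On the lower side, Pter, a phosphotriesterase-related protein, had 26.0, 30.4 and 23.8 CPM in IF12, against 44.9, 43.3 and 43.9 CPM in AL, a log2 fold change of -0.73 ± 0.15. Fam19a1, a secreted chemokine-like protein of neurons, had 22, 19.7 and 17.6 CPM in IF12 and 41.3, 36.6 and 29.1 CPM in AL. Slc26a4, the anion exchanger pendrin, had 2.08, 1.55 and 1.5 CPM in IF12, against 7.35, 3.54 and 4.55 CPM in AL. In these 3 genes AL replicate 1 was the highest AL sample.

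The other lower genes were scarce or uncertain. Kif6, a kinesin motor, averaged 1.75 CPM in IF12 and 3.12 CPM in AL. Adamts19, a secreted metalloprotease, was read 3, 12 and 4 times in IF12 and 26, 30 and 29 times in AL. E130311K13Rik and ENSMUSG00000092486 had log2 fold changes of -0.67 ± 0.16 and -0.995 ± 0.21. 9530026P05Rik is annotated as an antisense gene (chr6:92940329-93272979) and had a log2 fold change of -1.20 ± 0.28; without a stated use of strand its reads cannot be told apart from those of the gene on the other strand. Gm28437 is annotated as an unprocessed pseudogene (chr1:24613189-24613971), had 0.0905, 0.215 and 0.145 CPM in IF12 and 0.29, 15.7 and 14.8 CPM in AL, and may share reads with its parent gene. Of the 20 genes that the naming rule gave, DESeq2 called 18, all but Kif6 and 9530026P05Rik, and 19 of them, all but Kif6, were called without IF12 replicate 2. Both counts reuse the samples by which the 20 were picked, so they are no independent check.

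Among the immediate early genes, 17 of 24 had an unadjusted p under 0.05 on the higher side and none on the lower side, beside 7.66% of all genes on the higher side. The median log2 fold change of the list was 0.77, beside -0.01 over all genes. All 3 IF12 samples lay above all 3 AL samples for 13 of the 24, beside 8.51% of all genes. Arc, a synaptic effector whose RNA travels to dendrites (chr15:74669083-74672570), had 491, 518 and 448 CPM in IF12, against 130, 160 and 215 CPM in AL, a log2 fold change of 1.51 ± 0.30. Fosb, a subunit of the AP-1 factor, had 53.7, 71.8 and 95.4 CPM in IF12 and 18.6, 31.3 and 51.9 CPM in AL, so the highest AL sample came near the lowest IF12 sample. DESeq2 called 6 of the 24, beside 0.92% of all genes on the higher side, namely Nr4a1, Arc, Egr1, Egr2, Fosl2 and Fosb. Without IF12 replicate 2, 13 of the 24 had an unadjusted p under 0.05 on the higher side, beside 16.7% of all genes. In that fit edgeR called 7 of the 24, beside 4.29% of all genes, and the median was 0.73. Jun and Jund, other AP-1 subunits, had log2 fold changes of -0.08 and -0.02.

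The summed level of the 24 genes was 3297, 3341 and 3757 CPM in IF12, against 1573, 2006 and 2375 CPM in AL. In EOD it was 2956, 2988 and 2464 CPM, and in IF16 it was 3376, 3000 and 3222 CPM. After sham surgery it was 1376, 1374 and 1850 CPM in IF12 and 1353, 1884 and 2006 CPM in AL. The AL samples after ischemia were thus the lowest of the 4 regimens at that stage and lay close to the sham samples, while every IF12 sample after ischemia was above every sham sample of both regimens.

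Of the circadian clock genes, 13 of 19 had an unadjusted p under 0.05 on the higher side, beside 7.66% of all genes, and 1 on the lower side, beside 4.54%. The median log2 fold change was 0.45. Per1, a repressor of the loop and a CREB target, had 238, 160 and 220 CPM in IF12 and 82.0, 131 and 109 CPM in AL, a log2 fold change of 0.93 ± 0.19. Per2, its partner, had 77.6, 36.8 and 78.7 CPM in IF12 and 24.4, 24.7 and 24.9 CPM in AL, a log2 fold change of 1.37 ± 0.29. In Per2 the AL samples were nearly equal and IF12 replicate 2 lay between them and the other 2 IF12 samples. Per3 had 54.0, 29.0 and 52.9 CPM in IF12 and 29.8, 25.2 and 25.7 CPM in AL, and there the groups overlap. DESeq2 called 4 of the 19, beside 0.92% of all genes on the higher side, namely Cry1, Per1, Per2 and Bhlhe41, a repressor of the same loop. Without IF12 replicate 2, edgeR called 5, beside 4.29%. The member on the lower side was Rora, an activator of the loop and also a thalamic marker, with a log2 fold change of -0.42. Arntl, which encodes BMAL1, had a log2 fold change of -0.05 and an unadjusted p of 0.772.

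The clock genes summed to 2134, 1753 and 2096 CPM in IF12, against 1492, 1550 and 1499 CPM in AL. They summed to 1645, 1893 and 1891 CPM in EOD and to 1888, 1815 and 1906 CPM in IF16. In sham mice they summed to 1777, 1728 and 1784 CPM in IF12 and 1432, 1594 and 1657 CPM in AL. Unlike the immediate early genes, the clock genes were therefore also above AL in every IF12 sample of the sham stage. The hour of day at which each brain was taken is not given in the labels.

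Of the striatal projection neuron markers, 12 of 15 had an unadjusted p under 0.05 on the higher side, beside 7.66% of all genes. All 3 IF12 samples lay above all 3 AL samples for 14 of 15, beside 8.51%. Their median log2 fold change was 1.44, and without IF12 replicate 2 it was 1.61, with 6 of the 15 called, beside 4.29% of all genes. Pde10a, their cyclic nucleotide phosphodiesterase, had 503, 146 and 463 CPM in IF12 and 70.4, 65.5 and 77.5 CPM in AL. Drd2, the dopamine D2 receptor, had 77.0, 44.4 and 73.3 CPM in IF12, against 6.19, 17.1 and 21.2 CPM in AL. Syndig1l, a synaptic membrane protein, had a log2 fold change of 2.0 ± 0.51. Every AL sample was below every IF12 sample in these genes, and IF12 replicate 2 was the lowest IF12 sample in each.

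The summed striatal level was 3321, 2231 and 3306 CPM in IF12, against 519, 1231 and 1279 CPM in AL. It was 1273, 2580 and 791 CPM in EOD and 3695, 2616 and 2697 CPM in IF16. In sham mice it was 2994, 2745 and 2872 CPM in IF12 and 4133, 1735 and 2813 CPM in AL. The ischemic AL samples were thus below every IF12 and AL sham sample, and EOD spread over both ranges. DESeq2 called 4 of the 15 markers, beside 0.92% of all genes on the higher side, among them Pde10a, Syndig1l and Ppp1r1b.

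**Figure D3:**
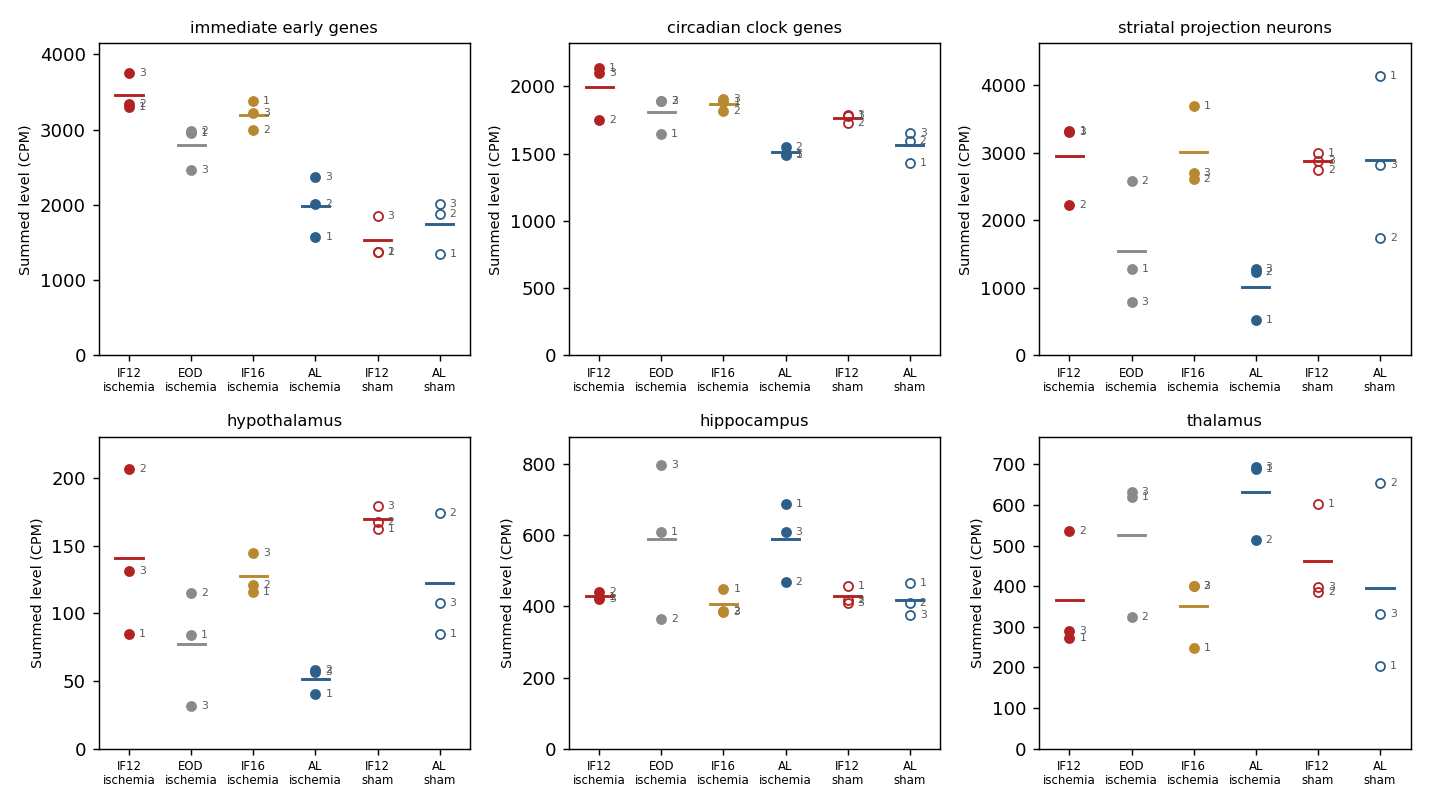
Summed level in CPM of 6 gene lists, 1 panel each, in the samples after ischemia alone (filled points: IF12, EOD, IF16, AL) and after sham surgery (open points: IF12, AL); numbers beside points are replicate numbers and bars are means. After ischemia alone, IF12 lies above AL for immediate early, clock, striatal and hypothalamic genes and below it for hippocampal genes, while thalamic genes of IF12 replicate 2 fall in the AL range.

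Most hippocampal markers ran the other way. Of 14, 9 had an unadjusted p under 0.05 on the lower side, beside 4.54% of all genes. The median log2 fold change was -1.32, with a range from -2.90 to 0.44. All 3 IF12 samples lay below all 3 AL samples for 7 of the 14, beside 6.69% of all genes, and above for 1, beside 8.51%. Spink8, a protease inhibitor of hippocampal pyramidal cells, had 0.317, 0.901 and 0.289 CPM in IF12, against 4.35, 1.87 and 3.85 CPM in AL, a log2 fold change of -2.72 ± 0.70. Lct, the lactase gene, had 1.54, 2.32 and 1.06 CPM in IF12 and 16.7, 3.35 and 16.7 CPM in AL. AL replicate 2 was the AL sample nearest to IF12 in both. Dsp, which encodes desmoplakin and marks dentate granule cells, had 0.317, 3.00 and 1.83 CPM in IF12 and 16.4, 2.01 and 12.0 CPM in AL, with overlap. With IF12 replicate 2 left out, 11 of 14 had an unadjusted p under 0.05, beside 16% of all genes. In that fit 1 was called as lower, beside 3.45% of all genes. The summed hippocampal level was 425, 439 and 420 CPM in IF12 and 686, 470 and 610 CPM in AL.

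Thalamic markers had 4 of 13 members at an unadjusted p under 0.05 on the lower side, beside 4.54% of all genes, and a median of -0.63. Prkcd, a protein kinase C isoform of thalamic relay neurons, had 22.1, 104 and 15.4 CPM in IF12, against 147, 148 and 234 CPM in AL. Ntng1, an axon guidance protein, had 16.5, 35.3 and 21.8 CPM in IF12 and 58.7, 36.1 and 46.9 CPM in AL. Ramp3, a receptor activity-modifying protein, had 9.0, 34.7 and 8.63 CPM in IF12 and 31.7, 33.2 and 52.4 CPM in AL. IF12 replicate 2 was the IF12 sample nearest to AL in all 3, and the summed level was 272, 537 and 290 CPM in IF12 against 689, 514 and 694 CPM in AL. Without IF12 replicate 2, 4 of the 13 were called as lower, beside 3.45% of all genes, and the median was -0.98.

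Of the hypothalamic markers, 6 of 13 tested had an unadjusted p under 0.05 on the higher side, beside 7.66% of all genes, and none on the lower side, with a median of 1.26. Leaving out IF12 replicate 2 gave 6 on the higher and 2 on the lower side, beside 16.7% and 16% of all genes. In that fit 2 were called as higher, beside 4.29% of all genes, and the median was 1.04. Oxt, the oxytocin gene (chr2:130576173-130577054), was read 106, 425 and 268 times in IF12 and 6, 15 and 1 times in AL, a log2 fold change of 5.07 ± 1.13. Avp, the vasopressin gene beside it, had 23.6, 94.5 and 55.0 CPM in IF12, against 0.822, 4.5 and 3.99 CPM in AL, a log2 fold change of 4.20 ± 1.00. Sim1, a transcription factor of the neurons that make both peptides, had 1.58, 1.33 and 1.64 CPM in IF12 and 0.0967, 0.383 and 0.0928 CPM in AL. Fezf1, a factor of the ventromedial hypothalamus, overlapped between the groups, with 0.905, 3.35 and 1.30 CPM in IF12 and 0.0484, 1.10 and 0.325 CPM in AL. DESeq2 called 3 of the 13, beside 0.92% of all genes on the higher side, namely Oxt, Avp and Gpr165. Hcrt, the orexin gene of the lateral hypothalamus, was read 4, 500 and 4 times in IF12 and 3, 46 and 103 times in AL, so its level rests on single samples. In CPM, Oxt after ischemia had 4.8, 18.2 and 12.9 in IF12 and 0.29, 0.718 and 0.0464 in AL. In sham mice it had 16.1, 20.5 and 29.4 CPM in IF12 and 9.76, 12.9 and 18.8 CPM in AL. All 3 ischemic AL samples, and also IF12 replicate 1, were below every one of these sham samples.

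Cortical markers had 5 of 13 members at an unadjusted p under 0.05 on the higher side, beside 7.66% of all genes, and a median of 0.23. Without IF12 replicate 2 the median was 0.42 and 4 were called as higher, beside 4.29% of all genes. Tle4, of deep cortical layers, had 78.2, 56.9 and 74.5 CPM in IF12 and 52.1, 41.3 and 43.0 CPM in AL. Tbr1, also of deep layers, had 179, 125 and 191 CPM in IF12 and 118, 125 and 117 CPM in AL. Pan-neuronal markers summed to between 7640 and 8208 CPM in IF12 and between 7594 and 7938 CPM in AL. Of these 12 markers, 1 had an unadjusted p under 0.05, on the lower side, beside 4.54% of all genes.

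The region markers moved with the same grouping as the activity and clock genes. When the log2 summed striatal level was added as a covariate, an alternative chosen after the data were seen, no gene was called and 545 had an unadjusted p under 0.05, 198 higher (1.24%) and 347 lower (2.17%). The median log2 fold change of the immediate early genes was then 0.47, with 6 of 24 at an unadjusted p under 0.05. For the clock list these values were 0.29 and 2 of 19. Nr4a1 had a log2 fold change of 0.75 (unadjusted p = 0.00463), against 1.33 without the covariate, Trib1 of 0.70 (unadjusted p = 0.00703), Cry1 of 0.53 (unadjusted p = 0.00731) and Sik1 of 0.89 (unadjusted p = 0.0117). Egr1 had 0.42 (unadjusted p = 0.0562) and Per1 0.44 (unadjusted p = 0.0853). Fosb had 0.44 (unadjusted p = 0.30), Junb 0.13 and Fos 0.02. The median of the hippocampal list was 0.00; the striatal list supplies the covariate, so its own values in that fit are fixed by construction. The summed striatal level was itself higher in every IF12 sample (lowest 2231 CPM) than in every AL sample (highest 1279 CPM). Covariate and regimen therefore cannot be told apart among these samples, and no conclusion is drawn from the smaller differences in this fit. The part that the tissue makeup of each section has in these differences was not tested.

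**Figure D4:**
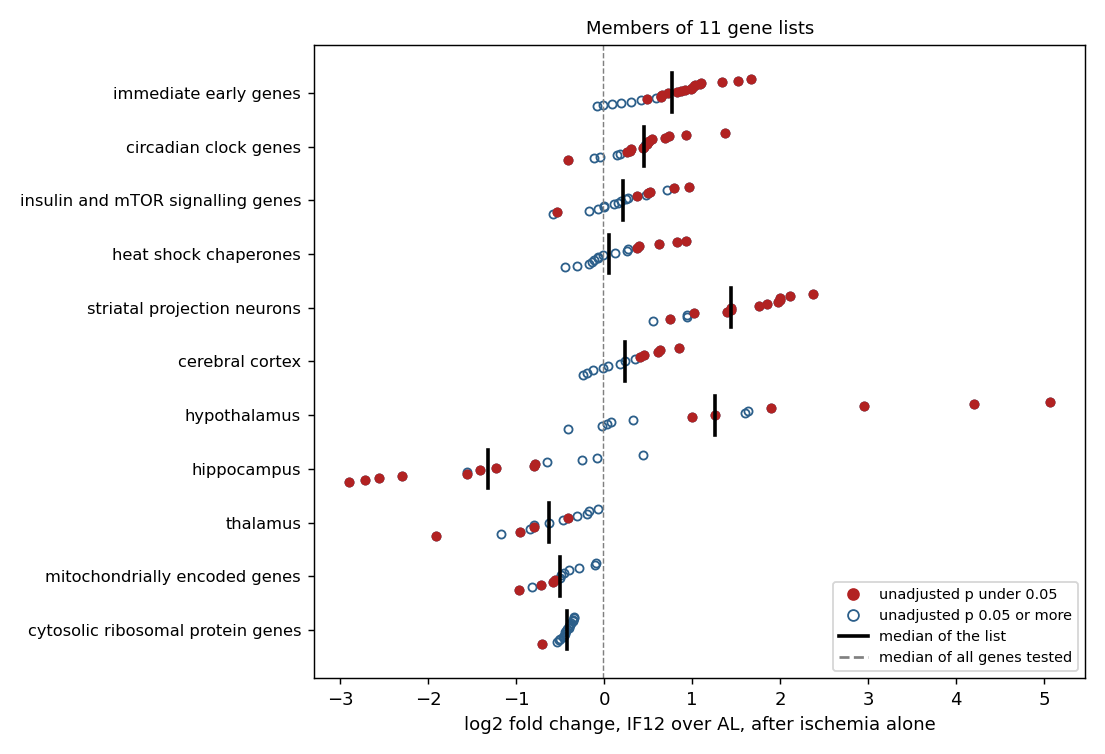
Log2 fold change, IF12 over AL, of each tested member of 11 gene lists after ischemia alone; red points have an unadjusted p under 0.05 and black bars are list medians. Immediate early, clock, striatal and hypothalamic members lie mostly right of the median of all genes (dashed), while thalamic, mitochondrial and ribosomal members lie left of it. Hippocampal members lie mostly left of it.

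Genes of energy production and protein synthesis lay below AL by small amounts. Their list medians were below 0 in sham mice too. These were -0.25 for ribosomal, -0.22 for nuclear oxidative phosphorylation and -0.16 for mitochondrially encoded genes. After ischemia alone all 18 ribosomal protein genes had a negative log2 fold change, between -0.70 and -0.34, with a median of -0.42. Of these, 1 of 18 had an unadjusted p under 0.05, beside 4.54% of all genes on the lower side. That gene was Rps27, with 6.56, 11.5 and 6.08 CPM in IF12 and 10.8, 13.3 and 14.9 CPM in AL. The nuclear oxidative phosphorylation genes had a median of -0.31, with 1 of 18 at an unadjusted p under 0.05, beside the same 4.54%. It was Cox7c, a cytochrome c oxidase subunit, with 102, 180 and 109 CPM in IF12 and 153, 182 and 209 CPM in AL. Of the mitochondrially encoded genes, 4 of 12 tested had an unadjusted p under 0.05 on the lower side, beside 4.54%, with a median of -0.50. mt-Nd5, a complex I subunit, had 1961, 2712 and 1635 CPM in IF12 and 2764, 4144 and 3399 CPM in AL. mt-Nd6, encoded on the other strand, had 392, 720 and 316 CPM in IF12 and 692, 1113 and 964 CPM in AL. These lists are the ones in which IF12 replicate 2 stood apart, and without it 14 of 18 ribosomal, 6 of 18 oxidative phosphorylation and 7 of 12 mitochondrial genes were called as lower, beside 3.45% of all genes.

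Insulin and mTOR signalling genes had 5 of 18 members at an unadjusted p under 0.05 on the higher side and 1 on the lower side, beside 7.66% and 4.54% of all genes, with a median of 0.22. When IF12 replicate 2 was left out, 5 of the 18 were called as higher, beside 4.29% of all genes, and the median was 0.33. Irs2, an adaptor of the insulin receptor, had 111, 84.1 and 153 CPM in IF12, against 74.6, 50.3 and 51.5 CPM in AL (log2 fold change 0.97 ± 0.26, DESeq2 adjusted p = 0.044). Irs1, its relative, had 20.1, 8.33 and 18.5 CPM in IF12 and 11.6, 7.42 and 7.75 CPM in AL, with overlap. Of the hypoxia and glycolysis genes, 1 of 17 was on each side at an unadjusted p under 0.05, beside the same 7.66% and 4.54%. Without IF12 replicate 2 there were 1 on the higher and 4 on the lower side, beside 16.7% and 16% of all genes. Pfkfb3, which makes the main activator of glycolysis, had 46.8, 42.7 and 52.2 CPM in IF12 and 27.8, 27.7 and 31.8 CPM in AL, a log2 fold change of 0.69 ± 0.16 (DESeq2 adjusted p = 0.0251). Hk2, a hexokinase, had 5.11, 4.68 and 3.57 CPM in IF12 and 6.82, 6.65 and 5.20 CPM in AL. Pfkfb3 was higher in all IF12 samples of the sham stage too, with 35.3, 35.6 and 38.6 CPM in IF12 and 28.4, 25.5 and 32.9 CPM in AL.

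Of the genes for ketone use and fatty acid oxidation, there was 1 of 19 on each side at an unadjusted p under 0.05. The shares of all genes were 7.66% and 4.54%, and the list median was -0.15. Without IF12 replicate 2, 1 was on the higher and 8 on the lower side, beside 16.7% and 16% of all genes in that fit, and the median was -0.30. Angptl4, a lipoprotein lipase inhibitor induced by fasting, had 0.769, 2.15 and 1.06 CPM in IF12 and 2.42, 2.39 and 2.69 CPM in AL. No cholesterol synthesis gene of 18 had an unadjusted p under 0.05. Antioxidant genes had 1 of 17 on each side, beside the same 7.66% and 4.54%, and a median of -0.22. With IF12 replicate 2 left out, 9 were on the lower side, beside 16% of all genes. Of these, 2 were called, beside 3.45% of all genes, and the list median was -0.42. The gene on the higher side was Txnrd1, a thioredoxin reductase, with 78.6, 74.8 and 80.2 CPM in IF12 and 59.1, 58.0 and 61.9 CPM in AL.

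Of the heat shock chaperones, 5 of 16 had an unadjusted p under 0.05 on the higher side, beside 7.66% of all genes, with a median of 0.06, and neither edgeR nor DESeq2 called any. Their summed level was 4579, 5229 and 4705 CPM in IF12 and 4692, 4881 and 5393 CPM in AL, so the groups overlap. In the fit without IF12 replicate 2, edgeR called 2 as higher and 1 as lower, beside 4.29% and 3.45% of all genes. Hspa1a had 35.4, 20.9 and 31.9 CPM in IF12 and 13.3, 12.3 and 23.6 CPM in AL, and Hspa1b, its near-identical copy, had a log2 fold change of 0.93 ± 0.32; reads shared between the copies make both uncertain. Of the integrated and ER stress genes, 6 of 17 were on the higher side, beside the same 7.66%. The median was 0.13, and neither tool called any. Without IF12 replicate 2 there were 4 on the higher and 2 on the lower side, beside 16.7% and 16% of all genes. Hspa5, the chaperone of the endoplasmic reticulum, had 269, 399 and 417 CPM in IF12 and 260, 250 and 288 CPM in AL, with overlap. Glucocorticoid-responsive genes, a list that also holds Per1, had 3 of 14 on the higher side, beside 7.66% of all genes. For that list there were 2 on each side without IF12 replicate 2, beside 16.7% and 16% of all genes.

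Neurotrophic factors had 1 of 10 tested at an unadjusted p under 0.05 on the higher side and 3 on the lower side. The shares of all genes were 7.66% and 4.54%. Without IF12 replicate 2 there were 1 and 5, beside 16.7% and 16% of all genes. Gdnf, a survival factor of dopamine neurons, had 2.53, 0.859 and 1.30 CPM in IF12 and 0.29, 0.574 and 0.464 CPM in AL. Ntf3, a neurotrophin of the hippocampus, had 1.04, 0.773 and 0.965 CPM in IF12, against 3.00, 2.30 and 2.50 CPM in AL. Nrn1, a membrane-anchored factor induced by activity, had 109, 156 and 109 CPM in IF12, against 180, 193 and 207 CPM in AL, so its direction was opposite to that of most immediate early genes. Feeding and stress neuropeptides had 3 of 18 on the higher side and 1 on the lower side, beside 7.66% and 4.54% of all genes. Oxt and Avp belong to this list as well. Leaving out IF12 replicate 2 gave 2 on the higher and 4 on the lower side, beside 16.7% and 16% of all genes. The list median was then -0.14, against 0.06 with that sample. No synapse and receptor gene of 18 had an unadjusted p under 0.05.

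At the same unadjusted threshold, to be read beside 7.66% of all genes on the higher and 4.54% on the lower side, cytokines and chemokines had 1 of 9 tested on the lower side, and interferon-stimulated genes had 3 of 18 on the lower side. Of the 18 interferon genes, 7 were on the lower side and 1 was called without IF12 replicate 2, beside 16% and 3.45% of all genes. Irf7, a driver of interferon responses, had 1.40, 1.55 and 1.11 CPM in IF12 and 1.79, 2.39 and 2.27 CPM in AL. Microglial markers had 3 of 12 on the lower side, and 5 without IF12 replicate 2, beside 16% of all genes in that fit. Siglech, a sialic acid-binding lectin of microglia, had 9.18, 11.2 and 7.43 CPM in IF12 and 11.9, 13.3 and 14.3 CPM in AL. Cd163, a scavenger receptor of macrophages at brain borders, had 3.62, 1.76 and 3.42 CPM in IF12 and 1.11, 1.53 and 0.881 CPM in AL, and was the 1 higher gene of 4 tested in its list. Neutrophil markers summed to between 0.814 and 2.62 CPM in IF12 and between 1.39 and 2.74 CPM in AL, 2 of 8 were abundant enough to test, and neither had an unadjusted p under 0.05. The 1 T and B cell gene tested of 9 was on the higher side. On the lower side there were 3 of 7 erythrocyte genes tested, 1 of 10 endothelial, 1 of 10 mural, 1 of 12 meningeal fibroblast, 1 of 9 ependymal and 1 of 10 oligodendrocyte markers. In the fit without IF12 replicate 2, and beside 16% of all genes there, these were 7 of 7 erythrocyte genes with 2 called, 2 endothelial, 1 mural, 2 meningeal, 4 ependymal and 9 of 10 oligodendrocyte markers. Erythrocyte genes summed to 267, 458 and 251 CPM in IF12 and 518, 545 and 439 CPM in AL. Astrocyte and oligodendrocyte precursor markers each had 1 of 10 on either side, and choroid plexus markers had 0 of 12. The inhibitory interneuron list, which also holds general genes of inhibitory neurons, had 5 of 12 on the higher side and 1 on the lower side. Without IF12 replicate 2 there were 6 and 3, beside 16.7% and 16% of all genes. With the summed striatal level as a covariate this list had 1 of 12 on the higher side, beside 1.24% of all genes. Its median was then -0.01, against 0.13 without the covariate.

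Whether the difference after ischemia exceeded that in sham mice was tested as an interaction over the 12 IF12 and AL samples of both stages. No gene was called, 0 of 15971 or 0%, with 765 genes (4.79%) at an unadjusted p under 0.05, 491 of them (3.07%) with a positive and 274 (1.72%) with a negative difference. DESeq2 called 16, and edgeR without IF12 replicate 2 called 0. In sham mice alone no gene was called either (0%), and 729 genes (4.56%) had an unadjusted p under 0.05, 402 higher (2.52%) and 327 lower (2.05%); DESeq2 called 2. All 3 IF12 samples of the sham stage lay above all 3 AL samples for 1243 genes (7.78%) and below them for 722 (4.52%).

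List counts for the interaction are to be read beside 4.79% of all genes, both directions together, and those for sham beside 4.56%. At an unadjusted interaction p under 0.05 there were 14 of 24 immediate early genes. Their median interaction was 1.02 and their median sham difference -0.20. Arc had an interaction of 1.91 ± 0.46 (unadjusted p = 0.00153), and in sham mice it had 131, 160 and 297 CPM in IF12 and 148, 311 and 308 CPM in AL. Nr4a1 had an interaction of 1.73 ± 0.56 (unadjusted p = 0.00923) and a sham difference of -0.38 ± 0.39. Striatal markers had 11 of 15 at an unadjusted interaction p under 0.05 and hippocampal markers 11 of 14. Their median interactions were 1.58 and -1.24, with median sham differences of -0.02 and -0.01. Oxt had an interaction of 4.41 ± 0.82 (unadjusted p = 0.000175). No ribosomal protein, nuclear oxidative phosphorylation or mitochondrially encoded gene of the lists had an unadjusted interaction p under 0.05. Clock genes had 3 of 19 at an unadjusted interaction p under 0.05 and 6 of 19 at an unadjusted sham p under 0.05. The median interaction of the clock list was 0.24 and its median sham difference 0.17. Per2 in sham mice had 37.3, 46.6 and 47.9 CPM in IF12 and 18.2, 22.7 and 31.9 CPM in AL, a sham difference of 0.86 ± 0.27 (unadjusted p = 0.00807) beside an interaction of 0.53 ± 0.38 (unadjusted p = 0.188). Per1 in sham mice had 88.8, 118 and 158 CPM in IF12 and 79.8, 111 and 162 CPM in AL, and its sham difference was 0.05 ± 0.28.

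**Figure D5:**
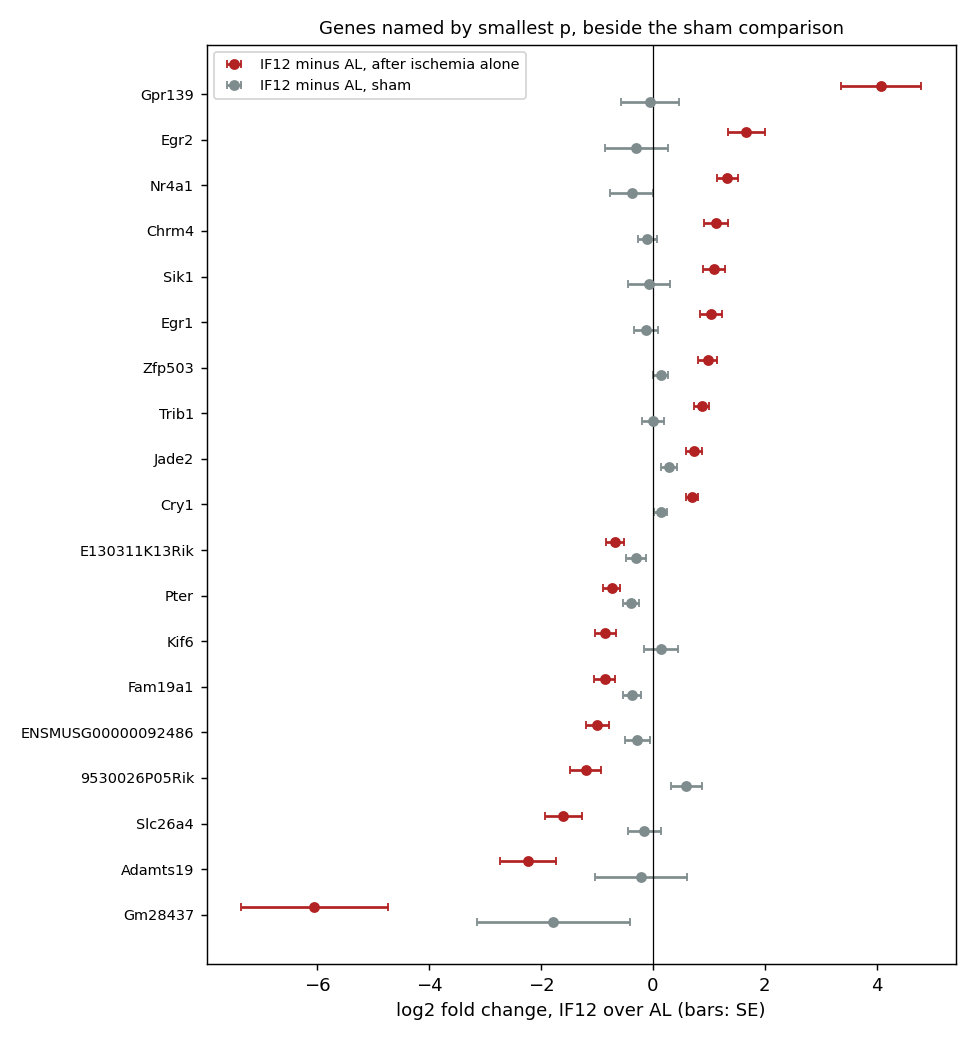
Log2 fold change, IF12 over AL, with SE bars for genes with the smallest p after ischemia alone (red), beside the same difference in sham mice (grey). The 10 higher genes lie right of 0 after ischemia, and their sham differences lie between -0.38 for Nr4a1 and 0.29 for Jade2; of the lower genes shown, Kif6 and 9530026P05Rik lie right of 0 in sham mice.

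Against the mean of EOD and IF16 after ischemia alone, IF12 showed no called gene (0 of 15991, 0%). There were 179 genes (1.12%) with an unadjusted p under 0.05, 71 higher (0.444%) and 108 lower (0.675%), and DESeq2 called none. Immediate early genes and clock genes had 0 of 24 and 0 of 19 at an unadjusted p under 0.05, with medians of 0.17 and 0.11. Nr4a1 had 226, 213 and 147 CPM in EOD and 262, 241 and 222 CPM in IF16, a difference of 0.34 (unadjusted p = 0.0585) for IF12. Arc had 495, 362 and 172 CPM in EOD and 366, 419 and 395 CPM in IF16. Cry1 had 22.8, 26.8 and 23.5 CPM in EOD and 24.7, 25.4 and 22.9 CPM in IF16, all above the 3 AL samples. The list that stood out here was choroid plexus, with 9 of 12 at an unadjusted p under 0.05, beside 1.12% of all genes. Its median was -0.95. Its summed level was 633, 2120 and 1801 CPM in IF12, against lowest samples of 2394 CPM in EOD and 1733 CPM in IF16. Within sham groups the list spread widely too, with 539, 1504 and 1928 CPM in IF12 and 2495, 355 and 1524 CPM in AL. Ttr, the transthyretin gene and its most abundant marker, had 315, 1518 and 1142 CPM in IF12 against 2029, 1528 and 2709 CPM in EOD and 1035, 1632 and 1694 CPM in IF16 (unadjusted p = 0.073). IF12 replicate 1 was the lowest of these 9 samples, and the part of the dissection in this difference was not tested.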

How the data were processed

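mRNA sequencing of 72 mouse brain samples gave 1 table of whole-number counts per gene, deposited by the authors. The submitters' processing notes name the builds GRCm38 and mm10 and the tools CASAVA, TopHat2 and DESeq2. Their versions, the annotation, the counting rule and strandedness were not given in the sources used here. Per the labels' protocols, RNA from frozen tissue with an RNA integrity number above 7 was used. An accompanying FPKM table was not used.

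Counts were tested with edgeR 4.0.16 in R 4.3.3 by the quasi-likelihood F test (TMM scaling, filterByExpr, robust fit), and a gene was called where its Benjamini-Hochberg adjusted p, over all genes tested, was under 0.05. IF12 against AL, and IF12 against the mean of EOD and IF16, used the 12 ischemia-alone samples; the interaction and the sham difference used the 12 IF12 and AL samples of both stages. SE is the log2 fold change over the square root of F. DESeq2 1.42.0, other scaling, no filter, a replicate block, other sets of samples and each sample left out were alternatives. The fits were checked on simulated counts. Within groups, sample pairs differed by a chi-square of 5.18 to 84.8 per gene, so no column was a copy of another. This value cannot show whether the samples of a group came from separate animals.

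Of 35275 identifiers, 34490 had a symbol; positions are from GENCODE M21 (GRCm38). The comparison, the 38 gene lists and the rules were chosen with earlier results of these data known. As fewer than 10 genes were called, the text names the 10 per direction with the smallest unadjusted p, a mean of at least 1 CPM in either group and no overlap, and up to 4 members per list with the largest log2 fold change. Fos, Junb, Fosl2, Jun, Jund, Rora, Arntl, Bhlhe41, Ppp1r1b and Gpr165 are named outside that rule, after their values were seen. A few genes that the rule gave are not reported here.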

Additional observations from a re-analysis of the deposited data

Results flagged for a closer look

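9530026P05Rik, annotated as an antisense gene, differed between IF12 and AL in opposite directions in the 2 stages. After ischemia alone it had 0.679, 0.816 and 0.579 CPM in IF12 and 1.69, 1.82 and 1.25 CPM in AL, so every IF12 sample was below every AL sample. In sham mice it had 1.21, 1.35 and 0.804 CPM in IF12 and 0.758, 0.678 and 0.775 CPM in AL, so every IF12 sample was above. The interaction log2 fold change was -1.78 ± 0.39, with an unadjusted p of 0.000615 and an edgeR adjusted p of 0.72, which misses the threshold.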

How the results depend on the processing

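In IF12 against AL after ischemia alone, the count of called genes was 0 with all samples and also 0 with DESeq2 size factors, a replicate block, only the 6 samples, a minimum fold of 2 and the striatal covariate. It was 1 without the filter on low counts (Nr4a1), 1 in a fit of all 72 samples (Gpr139) and 159 with DESeq2. With 1 sample left out it ran from 0 to 1257, with 1257 without IF12 replicate 2; the cause was not tested. Genes with an unadjusted p under 0.05, 1951 with all samples, ran from 826 to 5298 with 1 sample left out (826 without IF12 replicate 3, 941 without IF12 replicate 1, 1242 without AL replicate 2, 1227 without AL replicate 3), were 1504 with the replicate block and 545 with the striatal covariate. In the interaction DESeq2 called 16 genes. In sham mice DESeq2 called 2, and edgeR called 0 to 1 with 1 sample left out, the 1 without AL replicate 3. Against EOD and IF16 every alternative run gave 0.

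Replicate numbers were not used as pairs in the main fit. Deviations of IF12 and AL samples of the same number correlated at 0.30, 0.23 and -0.17. For samples of different numbers the correlations ran from -0.38 to 0.28. With 3 samples a group these values cannot decide whether the numbers pair the samples. Of 59 genes named by the rule, 3 had the opposite sign under the striatal covariate, each by less than its SE: Dsp 0.20 ± 1.09, Drd2 -0.0146 ± 0.18 and Ntng1 0.0335 ± 0.30. Drd2 is itself part of the summed level used as the covariate, so no reversal is shown for it. Hcrt, 1.6 with all samples, reversed to -3.63 without IF12 replicate 2 and ran up to 2.63 without AL replicate 3. None of the 59 reversed under the other alternatives. DESeq2 called 33 of them, beside 0.92% of all genes on the higher and 0.148% on the lower side. Without IF12 replicate 2, 46 were called, beside 4.29% and 3.45% of all genes. The 59 were picked from these same samples, so neither count is an independent check. With 3 samples a group, precision is limited by the spread between samples more than by depth, except for genes with under about 10 reads a sample, such as Gpr139 in AL.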
